A study of Mus musculus with 36 samples.

Results

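The mRNA levels of 8 liver-enriched transcription factors, Foxa1, Foxa2, Foxa3, Hnf4a, Onecut1, Cebpa, Cebpb and Prox1, were followed in mouse liver from the end of gestation to young adulthood. They were chosen by symbol and not by their values. All 8 were found among the 21889 gene symbols of the RNA-Seq table, and all 8 passed the filter on low values with 11149 genes. Livers came from male C57BL/6 mice of 12 ages, 3 mice at each age, 36 in all, and none of the animals was treated or carried an engineered allele according to the labels. The youngest group, labelled Day -2, is the late fetal age GD17.5 (GD, gestation day). The next 4 groups were newborn pups of Days 0, 1, 3 and 5, followed by sucklings of Days 10, 15 and 20. Pups were weaned on Day 21, and the groups after that were of Days 25, 30, 45 and, as young adults, 60. The mice of an age were different animals drawn from several litters. The study set the perinatal ages (GD17.5 to Day 5) apart from the pre-weaning ages (Days 10 to 20) and from those of adolescence and adulthood (Days 25 to 60), and its reference for single ages was Day 60.

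Liver-enriched transcription factors are proteins that bind DNA next to the genes that define a hepatocyte and hold one another's genes in a mutually reinforcing network. FOXA proteins open compacted chromatin and prepare it for other factors, HNF4A is a nuclear receptor needed for hepatocyte differentiation and metabolism, and ONECUT1 (HNF6) acts early in hepatocyte and bile duct development. CEBPA drives metabolic genes of the quiescent hepatocyte, CEBPB acts in the acute-phase response and in regeneration, and PROX1 is a homeobox factor that hepatoblasts need to migrate out of the liver bud. Several are also made outside the hepatocyte: FOXA, HNF4A and ONECUT1 proteins occur in pancreas, and PROX1 marks lymphatic endothelium.

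In the mm9 annotation, Foxa1 lies at chr12:58641618-58647108 (minus strand), Foxa2 at chr2:147868613-147872705 (minus), Foxa3 at chr7:19598631-19608887 (minus), Hnf4a at chr2:163332544-163398646 (plus), Onecut1 at chr9:74709728-74737591 (plus), Cebpa at chr7:35904312-35906945 (plus), Cebpb at chr2:167514415-167515918 (plus) and Prox1 at chr1:191945660-191994559 (minus). Cebpa and Cebpb are single-exon genes. Hnf4a has 7 annotated transcripts with up to 10 exons, and its values below are given per gene symbol and not per transcript.

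RefSeq lists 12 transcription starts for the 8 genes. The 250 bases before each start matched the gene's own chromosome in mm9 exactly once on the gene's strand. Other chromosomes were not searched. These stretches were searched on both strands for the letters that the FOXA (TGTTTAC), ONECUT (ATCAAT), HNF4 (CAAAGTCC) and C/EBP (TTGCNNAA) proteins are known for. No match overlaps another. The 3 starts with a match are shown, up to the first annotated exon, with the match in capitals and written 5′ to 3′ along the gene.
Foxa1, chr12:58647109-58647348, minus strand, FOXA letters read on the opposite strand: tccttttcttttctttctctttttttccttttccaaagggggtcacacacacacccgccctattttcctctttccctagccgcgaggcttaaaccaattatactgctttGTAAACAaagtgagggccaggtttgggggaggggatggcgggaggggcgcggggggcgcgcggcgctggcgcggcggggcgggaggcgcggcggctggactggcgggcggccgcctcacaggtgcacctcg
Foxa2, chr2:147872706-147872955, minus strand, ONECUT letters read on the opposite strand: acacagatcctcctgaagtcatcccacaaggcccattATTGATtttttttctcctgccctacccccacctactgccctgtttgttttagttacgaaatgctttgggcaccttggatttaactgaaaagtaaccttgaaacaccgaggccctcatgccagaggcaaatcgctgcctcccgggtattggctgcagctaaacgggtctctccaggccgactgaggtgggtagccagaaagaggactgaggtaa
Hnf4a, chr2:163332343-163332543, plus strand, ONECUT letters: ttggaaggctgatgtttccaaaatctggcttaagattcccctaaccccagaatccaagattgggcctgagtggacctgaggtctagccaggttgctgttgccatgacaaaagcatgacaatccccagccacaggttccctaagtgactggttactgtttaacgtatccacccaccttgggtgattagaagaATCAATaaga
The FOXA letters stand 141 to 135 bases before the Foxa1 start. The ONECUT letters stand 213 to 208 bases before the most distal of the 3 Foxa2 starts and 59 to 54 bases before the first of the Hnf4a starts, which lies 40298 bases before the second. Among all 32851 promoters of the same length, 3.17% held the FOXA letters, 6.72% the ONECUT letters and 9.56% the C/EBP letters, and 393 of them held the HNF4 letters. No HNF4 or C/EBP letters were found in the 12 stretches.

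Levels are given as FPKM, sequenced fragments scaled to exon length and to library size, a unit that allows genes to be compared. The deposited table has no counts; steps in its low values gave relative library depths of 0.871 to 1.31 and an estimated depth of 84600000 fragments per library. With that estimate the thinnest value of the 8 genes, Onecut1 in a GD17.5 mouse, rested on about 23 fragments, and the deepest, Hnf4a, on about 44840. The 7 hepatocyte markers of the check list, among them Alb and Ttr, were above 0 in every mouse. Other cells changed with age as well. Summed FPKM of 11 erythroid genes was 142279 to 196227 at GD17.5 and 689 to 790 at Day 60, while the hepatocyte markers summed to 12015 to 13453 at GD17.5 and to 52077 or more in every later mouse. In bulk liver, fewer hepatocytes and less RNA per hepatocyte cannot be told apart. Genes of pancreatic acinar cells, such as Ctrb1 and Cela2a, summed to over 1000 FPKM in 9 libraries and reached 16450 in mouse 1 of Day 60, against 0.359 and 1.66 in the other 2 mice of that age. Mouse 1 of Day 30 stood apart in several of the 8 genes and had the highest relative depth, 1.31. Its erythroid genes summed to 6803 FPKM, against 2776 and 2552 in the other mice of that age. The part of either in its values was not tested.

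The 8 genes fell into 3 levels of abundance. Hnf4a and Cebpa were the most abundant, with age means of 36.9 to 94.1 and 27.9 to 84.1 FPKM. Foxa3 ranged from 6.63 to 15.0 FPKM, Foxa2 from 2.68 to 10.1, Cebpb from 3.39 to 12.4 and Prox1 from 1.58 to 5.89. Foxa1 (0.611 to 2.85 FPKM) and Onecut1 (0.381 to 2.44 FPKM) were the least abundant. Between its lowest and highest age mean a gene changed 2.26-fold (Foxa3) to 6.41-fold (Onecut1). When the ages were put in order of a gene's mean, the 3 mice of neighbouring ages overlapped at 10 or 11 of the 11 places for every gene. The 4 neighbours that stood apart were Day 0 below GD17.5 for Foxa1, GD17.5 below Day 0 for Foxa2, Day 3 below Day 25 for Onecut1 and GD17.5 below Day 1 for Cebpa. GD17.5 was the lowest age for Foxa2, Hnf4a, Onecut1, Cebpa and Cebpb, Day 0 for Foxa1 and Prox1, and Day 45 for Foxa3.

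**Figure D1:**
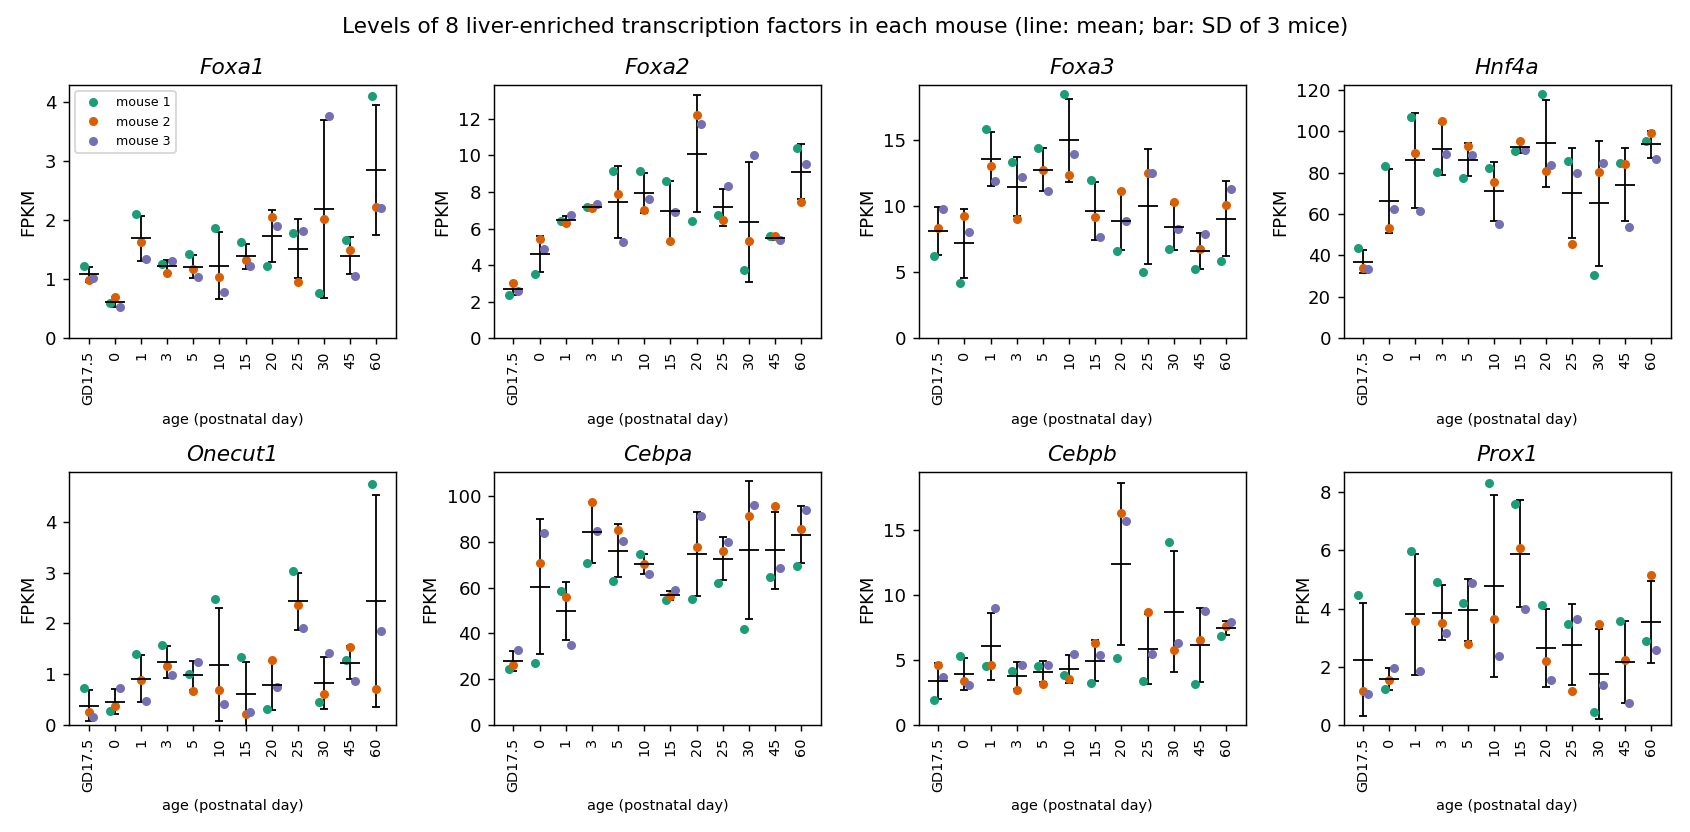
FPKM (vertical axes, linear from 0) of each gene against age (horizontal axes, GD17.5 then postnatal days); dots are the 3 mice, the line is their mean and the bar their SD. Foxa2, Hnf4a and Cebpa start low at GD17.5, with means of 2.68, 36.9 and 27.9 FPKM, Onecut1 at Day 60 is spread by mouse 1 at 4.75 FPKM, and Hnf4a at Day 30 by mouse 1 at 30.5 FPKM.

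At GD17.5, 6 of the 8 mRNAs were lower than at Day 60: Foxa1, Foxa2, Hnf4a, Onecut1, Cebpa and Cebpb. Across all genes tested, 18.6% were called lower and 56.4% higher in that comparison, and the median gene was 0.56 higher on the log2(FPKM + 1) scale, while the median log2 fold change of the 8 genes was -1.08. In the same comparison all 11 erythroid and all 10 neutrophil markers were higher and all 7 hepatocyte markers lower, and their part in the difference was not tested. At Day 0, 3 of the 8 were lower (Foxa1, Foxa2 and Onecut1), against 20.3% of all genes. After Day 0 few differences from Day 60 were called: 1 of 8 was lower at Day 1 (Cebpa, 11.7% of all genes), 1 at Day 3 (Foxa1, 10.3%), 1 at Day 5 (Foxa1, 8.50%), 1 at Day 10 (Foxa1, 10.6%) and 2 at Day 15 (Foxa1 and Onecut1, 8.95%), and 1 was higher at Day 10 (Foxa3, 35.3%). By limma, with adjustment over all 11149 genes, none of the 8 was called at Days 20, 25, 30 or 45, against 15.9%, 7.42%, 3.56% and 0.233% of all genes in either direction. At an unadjusted p under 0.05 these 4 ages held 7 of 32 gene-by-age comparisons, and Dunnett's comparison called 0, while a call was gained for Foxa1 at Day 25 without Day 30 mouse 1 (adjusted p = 0.0488), for Foxa2 at Day 30 without its mouse 3 (0.0202) and for Onecut1 at Day 20 without Day 60 mouse 2 (0.0147). Summed over the 11 ages this made 16 calls in 88 gene-by-age comparisons (39.6% for all genes). Upper quartile scaling gave 35 calls. With 8 genes and any age, 7 of the 8 differed from Day 60, all but Prox1 (adjusted p = 0.143), a share near the 90.7% of all genes. Foxa3 and Cebpb passed with adjusted p-values of 0.0499 and 0.0338.

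**Figure D2:**
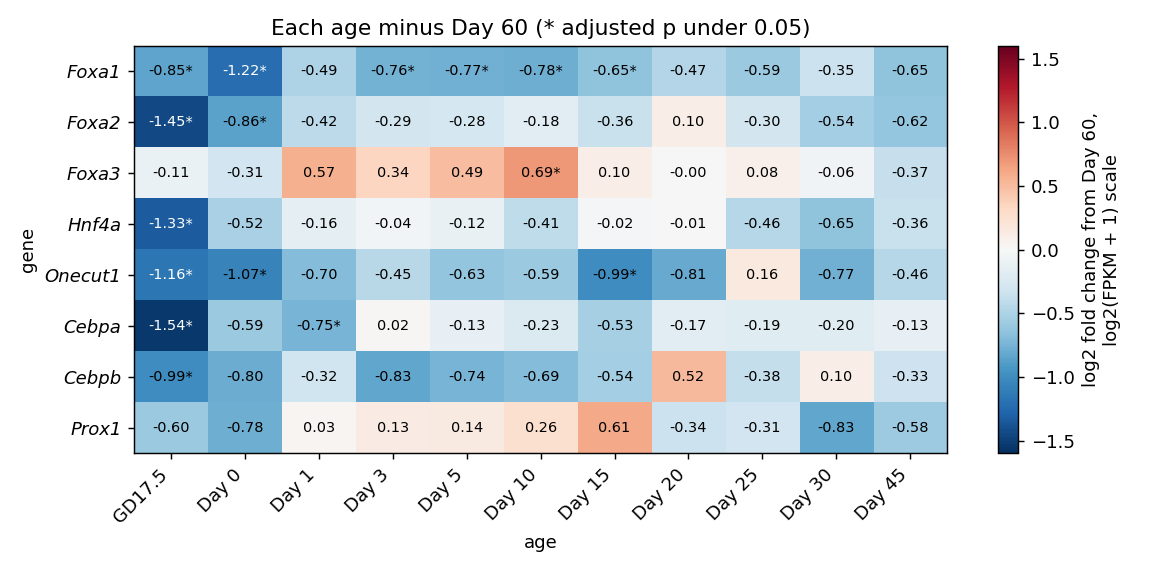
Log2 fold change of each age (columns) from Day 60 for each gene (rows), on the log2(FPKM + 1) scale; blue is lower, red is higher, and a star marks an adjusted p under the threshold of 0.05. The first 2 columns hold 9 of the 16 stars, with the lowest value, -1.54, for Cebpa at GD17.5.

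The calls against Day 60 rested in part on mouse 1 of that age, the library with the most acinar RNA. Without it, 8 calls were made in place of 16, and 4 of the 8 genes differed at some age. The GD17.5 differences of Foxa1, Foxa2, Hnf4a and Cebpa were called under all alternative settings that tested them, 45 for Foxa1 and 46 for the others. That of Onecut1 was lost without Day 60 mouse 1 (log2 fold change -0.70, adjusted p = 0.0555), and that of Cebpb without GD17.5 mouse 1 (-0.73, adjusted p = 0.115). Dunnett's comparison, the study's own kind of test, called the GD17.5 difference of the other 5 genes and not that of Cebpb.

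Between the study's age groups, GD17.5 to Day 5 was lower than Days 10 to 60 for 5 of the 8 genes (Foxa1, Foxa2, Onecut1, Cebpa and Cebpb) and higher for none. Of all genes, 15.8% were lower and 69.6% higher in the same comparison. Days 10 to 20 were higher than the other ages for Foxa2 and Prox1, 2 of 8 against 14.5% of all genes. Days 25 to 60 were higher than the earlier ages for Foxa1, Onecut1, Cebpa and Cebpb, 4 of 8 against 14.6%, and lower for Foxa3, 1 of 8 against 68.2%. The median of all genes was 0.46, -0.13 and -0.41 in the 3 comparisons, and that of the 8 genes was -0.31, 0.22 and 0.22. These shifts depended on the scaling of the libraries. When each library was divided by its upper quartile, the medians of all genes moved to 0.09, 0.02 and -0.14, and the shares called higher and lower to 44.2% and 33.8% for GD17.5 to Day 5, 27.8% and 24.7% for Days 10 to 20, and 29.4% and 47.0% for Days 25 to 60. All 8 genes were then lower at GD17.5 to Day 5, 4 were higher at Days 10 to 20 and 6 at Days 25 to 60, and Foxa3 turned from higher to lower in the first comparison (0.13 to -0.39). Without the 9 libraries rich in acinar RNA, 3 were lower at GD17.5 to Day 5, none was called at Days 10 to 20, and 4 were higher at Days 25 to 60.

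**Figure D3:**
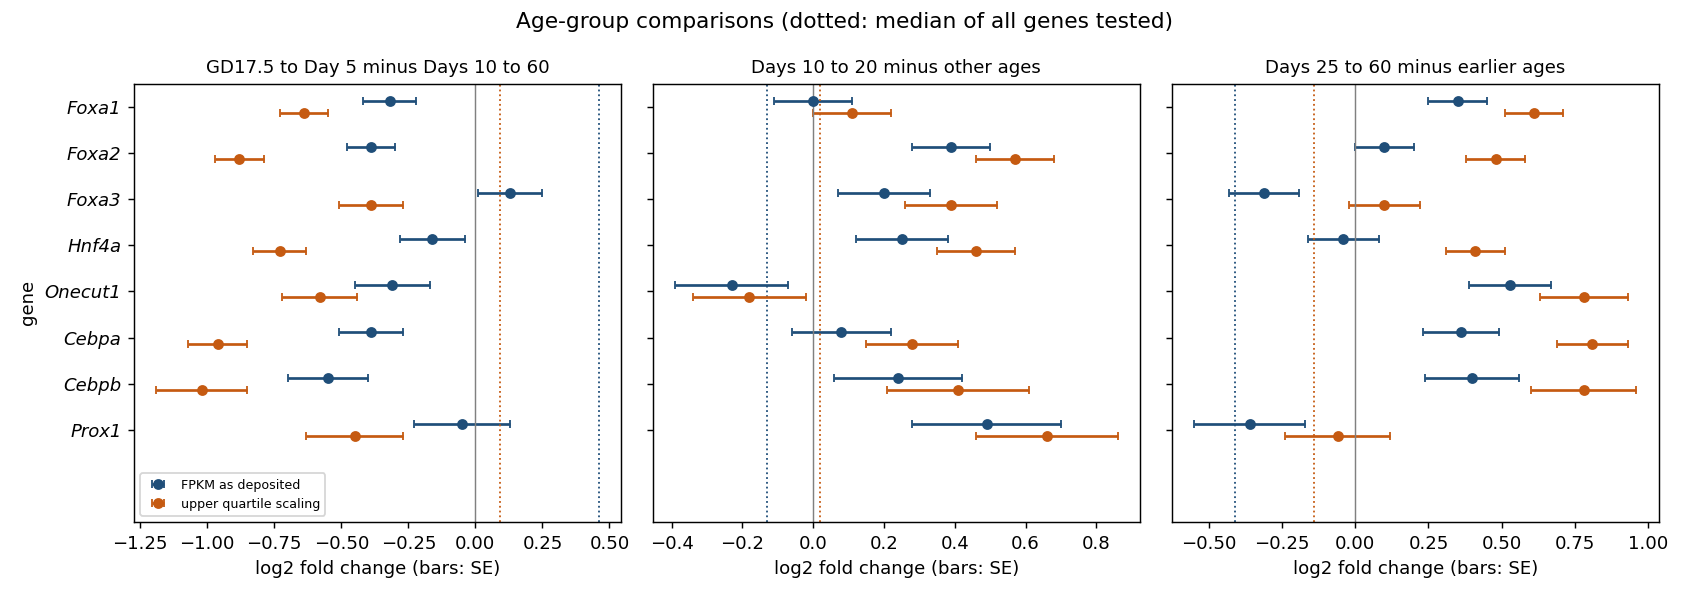
Log2 fold change (horizontal axes, bars are SE) of each gene (vertical axis) in the 3 age-group comparisons, with FPKM as deposited in blue and after upper quartile scaling in orange; dotted lines are the medians of all 11149 genes. In the left panel all blue points lie below the blue median of 0.46, and in the right panel all lie above the blue median of -0.41.

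Foxa2 was lowest before birth and higher at each of the next 5 ages. Its FPKM in the 3 mice was 2.39, 3.03 and 2.60 at GD17.5, 3.52, 5.41 and 4.87 at Day 0, 6.42, 6.29 and 6.73 at Day 1, and 10.4, 7.46 and 9.53 at Day 60. Every GD17.5 mouse was below every mouse of any other age. Foxa2 was lower than at Day 60 by -1.45 on the log2 scale at GD17.5 (SE 0.23, adjusted p = 1.87e-06) and by -0.86 at Day 0 (SE 0.23, adjusted p = 0.00178). The step from GD17.5 to Day 0 was 0.60 (SE 0.23, adjusted p = 0.0303), a call lost in 7 of 46 alternatives. Its highest mean was at Day 20, 10.1 ± 3.21 FPKM (SD, n = 3), where mouse 1 had 6.44 and mice 2 and 3 had 12.2 and 11.7. GD17.5 to Day 5 was 0.39 below the later ages (log2 fold change -0.39, SE 0.09, adjusted p = 0.000441). Days 10 to 20 were 0.39 above the other ages (SE 0.11, adjusted p = 0.00321). That call was lost without the acinar-rich libraries (0.32, adjusted p = 0.0819), of which mouse 2 of Day 20, with 5502 FPKM of acinar genes, is a member.

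Foxa1, the least abundant of the 3, was lowest on the day of birth. The Day 0 mice had 0.596, 0.704 and 0.533 FPKM, all below the 3 GD17.5 mice (1.23, 0.987 and 1.02) and the 3 Day 1 mice (2.10, 1.63 and 1.35). The step up from Day 0 to Day 1 was 0.73 (SE 0.23, adjusted p = 0.0180). Without Day 0 mouse 3 (adjusted p = 0.0656) or Day 1 mouse 1 (0.0893) it was not called. At Day 60 the mice had 4.11, 2.23 and 2.20 FPKM, and mouse 1, high in acinar genes, was the highest of all 36. The Day 0 to Day 60 difference was -1.22 (SE 0.23, adjusted p = 4.23e-05). The differences at Days 3, 5, 10 and 15 were -0.65 to -0.78 and none was called without Day 60 mouse 1 (adjusted p = 0.0640, 0.0587, 0.0767 and 0.242). Days 25 to 60 exceeded the earlier ages by 0.35 (SE 0.10, adjusted p = 0.00239), a call kept under all 45 alternatives, while the deficit of GD17.5 to Day 5 (-0.32, SE 0.10, adjusted p = 0.00356) was not called without the acinar-rich libraries (-0.22, adjusted p = 0.0854). At Day 30 the 3 mice differed more than at any other age, with 0.772, 2.02 and 3.77 FPKM.

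Foxa3, the most abundant Foxa mRNA in the perinatal liver, had overlapping levels at GD17.5 and Day 60. It was 6.21, 8.40 and 9.82 FPKM at GD17.5 and 5.85, 10.1 and 11.3 at Day 60, a difference of -0.11 (SE 0.28, adjusted p = 0.722). Under upper quartile scaling GD17.5 was called lower (-0.65, adjusted p = 0.0427). The mice of Day 0 had 4.23, 9.28 and 8.07 FPKM and those of Day 1 had 15.9, 13.1 and 11.9. This step was 0.88 (SE 0.28, adjusted p = 0.0182) and was not called without Day 0 mouse 1 (0.59, adjusted p = 0.120) or Day 1 mouse 1 (0.78, adjusted p = 0.0839). The highest mean was at Day 10, 15.0 ± 3.12 FPKM (SD, n = 3), above Day 60 by 0.69 (SE 0.28, adjusted p = 0.0448), a call lost in 11 of 46 alternatives. Days 25 to 60 were lower than the earlier ages by -0.31 (SE 0.12, adjusted p = 0.0208), less than the -0.41 of the median gene, and this turned to 0.10 under upper quartile scaling. It was also not called without Day 25 mouse 1 (-0.21, adjusted p = 0.0749) or Day 60 mouse 1 (-0.25, adjusted p = 0.0625).

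The ratio of Foxa3 to Foxa2 mRNA was on average higher in the perinatal liver than later, although single ages overlapped. At GD17.5, Foxa3 made up 67.9% ± 4.95 of the summed Foxa FPKM, falling to 43.3% ± 3.50 by Day 20 and 42.9% ± 12.3 by Day 60 (SD, n = 3). Foxa2 made up 22.7% ± 2.89, 48.3% ± 3.56 and 43.4% ± 6.81 at the same ages, and Foxa1 between 4.97% and 13.7% at all ages. The ratio of Foxa3 to Foxa2 within a mouse, which no scaling of the library changes, was 2.60, 2.77 and 3.77 at GD17.5, above all 33 later mice, and 1.03, 0.914 and 0.760 at Day 20. Its mean log2 value was 0.94 ± 0.44 (SD, n = 15) at GD17.5 to Day 5 and 0.33 ± 0.54 (SD, n = 21) at Days 10 to 60. The difference of 0.61 had a two-sided permutation p of 0.000820, or 0.00738 after Benjamini-Hochberg adjustment over 9 ratio comparisons. This permutation moved single mice between the groups whatever their age. It thus takes the mice of an age as independent and does not measure the spread between ages. The other 8 comparisons, including those of Cebpa over Cebpb and of Hnf4a over Prox1, had adjusted p-values of 0.0913 to 0.692.

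**Figure D4:**
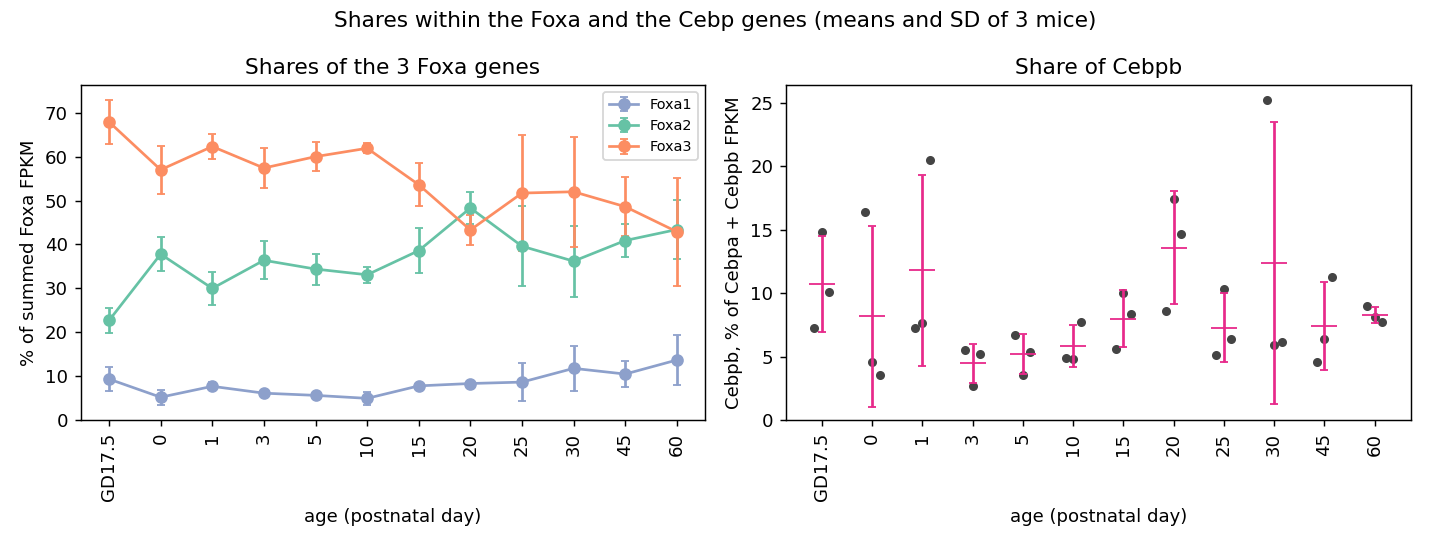
Left, share (%) of the summed Foxa FPKM held by each Foxa gene against age, mean and SD of 3 mice; right, Cebpb as a share (%) of Cebpa plus Cebpb FPKM, dots are mice and the line and bar are mean and SD. Foxa3 starts at 67.9% and meets Foxa2 at Day 20 (43.3% and 48.3%), while the Cebpb share is at most 25.2% in any mouse.

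Hnf4a, the nuclear receptor of the group, rose around birth. It was 43.4, 33.9 and 33.6 FPKM at GD17.5, 83.2, 53.1 and 62.4 at Day 0, 107, 89.4 and 61.5 at Day 1 and 80.3, 105 and 89.2 at Day 3. The GD17.5 mice were below all others except mouse 1 of Day 30 (30.5 FPKM). The step from GD17.5 to Day 0 was 0.81 (SE 0.28, adjusted p = 0.0175) and lost its call without GD17.5 mouse 2 or 3 (adjusted p = 0.0535 and 0.0537) or Day 0 mouse 1 (0.0921). GD17.5 lay below Day 60 by -1.33 (SE 0.28, adjusted p = 0.000125). From Day 0 on, no age was called different from Day 60 with FPKM as deposited. Under upper quartile scaling Days 0, 1, 3, 5 and 10 were called lower than Day 60, by -0.59 to -0.85 (adjusted p = 0.00231 to 0.0403). Day 0 was also called lower without Day 30 mouse 1 (-0.52, adjusted p = 0.0447) and with trends in GC content and length removed (-0.68, adjusted p = 0.0147). The largest spread was at Day 30, with 30.5, 80.4 and 84.6 FPKM. The deficit of GD17.5 to Day 5 was -0.16 (SE 0.12, adjusted p = 0.205), but -0.23 with adjusted p = 0.0281 without Day 30 mouse 1 and -0.73 with adjusted p = 8.09e-08 under upper quartile scaling. With trends in GC content and length removed, it was -0.25 (adjusted p = 0.0235). The study's clustering placed Hnf4a among the pre-weaning-enriched factors. Here Days 10 to 20 exceeded the other ages by 0.25 (SE 0.13, adjusted p = 0.106), and by 0.46 (adjusted p = 0.000758) under upper quartile scaling.

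Onecut1, the cut-homeodomain factor, was the least abundant of the 8 and had the largest ratio between age means. The mice had 0.725, 0.256 and 0.161 FPKM at GD17.5 and 0.267, 0.380 and 0.739 at Day 0. At Day 25 they had 3.03, 2.36 and 1.92 FPKM, clear of both early ages. At Day 60 they had 4.75, 0.711 and 1.86 FPKM, where the highest is the mouse with the acinar genes at 16450 FPKM and the lowest overlaps GD17.5. Days 25 to 60 were higher than the earlier ages by 0.53 (SE 0.14, adjusted p = 0.00137), a call made in all 45 alternatives. Within that group, Day 30 (0.461, 0.604 and 1.42 FPKM) and Day 45 (1.29, 1.53 and 0.876) overlapped Days 1, 3, 5 and 10. Their means, 0.829 and 1.23 FPKM, were below the 1.24 of Day 3. The lower level at GD17.5 to Day 5 (-0.31, SE 0.14, adjusted p = 0.0402) was lost in 18 of 45, among them leaving out Day 60 mouse 1 (-0.24, adjusted p = 0.0664) and Day 10 mouse 1 (-0.25, adjusted p = 0.0678). The differences from Day 60 at Day 0 (-1.07) and Day 15 (-0.99) had adjusted p-values of 0.00649 and 0.0273, and 0.109 and 0.277 without Day 60 mouse 1. Within ages, Onecut1 deviations went with the summed acinar genes with r = 0.52 over 36 mice (Spearman's rho = 0.45, permutation p = 0.0398 and 0.0321), a relation that missed the threshold after adjustment over the 8 genes (adjusted p = 0.106 and 0.0857). For Foxa1, r was 0.50 (permutation p = 0.00353, adjusted p = 0.0282) and rho 0.53 (permutation p = 0.00756, adjusted p = 0.0605). Without the 2 mice farthest from the median acinar value, r was 0.42 for both genes. Without the acinar-rich libraries (27 mice), r was 0.15 for Onecut1 and 0.38 for Foxa1. For Foxa2, r was 0.45 (permutation p = 0.0151, adjusted p = 0.0605), and 0.52 without those libraries. In the remaining genes r over 36 mice lay between -0.17 and 0.11.

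Cebpa, the basic leucine zipper factor of the resting hepatocyte, was 24.6, 26.4 and 32.6 FPKM at GD17.5 and 27.1, 70.5 and 83.8 at Day 0. Mouse 1 of Day 0 thus stayed within the GD17.5 range while its age mates were more than 2-fold higher. At Day 3 the mice had 70.6, 97.1 and 84.7 FPKM, the highest age mean, and at Day 60 they had 69.5, 85.7 and 93.9. The GD17.5 to Day 60 difference of -1.54 (SE 0.30, adjusted p = 4.05e-05) was the largest of the 8 genes in log2(FPKM + 1), although the ratio of the 2 age means was larger for Onecut1 and Foxa2. The step from GD17.5 to Day 0 was 0.95 (SE 0.30, adjusted p = 0.00941). It was not called without Day 0 mouse 2 (0.77, adjusted p = 0.0571) or mouse 3 (0.64, adjusted p = 0.0934). A lower level at Day 1, 49.7 ± 12.8 FPKM (SD, n = 3), with mice 1 and 2 at 58.5 and 55.8, was called against Day 60 (-0.75, SE 0.30, adjusted p = 0.0299) and lost without Day 1 mouse 3 (-0.52, adjusted p = 0.165) or without Day 60 mouse 2 (-0.72, adjusted p = 0.0681) or 3 (-0.66, adjusted p = 0.0948). GD17.5 to Day 5 was lower by -0.39 (SE 0.12, adjusted p = 0.00512) and Days 25 to 60 higher by 0.36 (SE 0.13, adjusted p = 0.0125), both called in all 46 alternatives.

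Cebpb, the paralog known from acute inflammation, had age means of 3.39 to 6.06 FPKM up to Day 15. Its mice had 1.93, 4.58 and 3.68 FPKM at GD17.5, 4.12, 2.69 and 4.63 at Day 3 and 3.83, 3.57 and 5.49 at Day 10. At Day 60 they had 6.86, 7.60 and 7.91 FPKM, above all of these but below mouse 3 of Day 1 (9.02). With FPKM as deposited, Day 3 (-0.83, adjusted p = 0.0515) and Day 10 (-0.69, adjusted p = 0.137) were not called against Day 60. Some alternatives called them lower, such as upper quartile scaling for Day 3 (-1.34, adjusted p = 0.00730). Single mice stood out at other ages: 16.3 and 15.7 FPKM in mice 2 and 3 of Day 20, against 5.17 in mouse 1, and 14.1 FPKM in mouse 1 of Day 30, against 5.75 and 6.33. GD17.5 to Day 5 was lower than the later ages by -0.55 (SE 0.15, adjusted p = 0.00182), called in all 46 alternatives. Days 25 to 60 were higher by 0.40 (SE 0.16, adjusted p = 0.0253), and this was not called without Day 25 mouse 2 (0.33, adjusted p = 0.0687), Day 30 mouse 1 (0.31, adjusted p = 0.0772) or Day 45 mouse 3 (0.33, adjusted p = 0.0661). As a share of Cebpa plus Cebpb FPKM, Cebpb was 25.2% in mouse 1 of Day 30 and 5.93% and 6.18% in its age mates.

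Prox1 varied more between mice of an age than any of the others, with an SD within ages of 0.58 on the log2 scale against 0.29 to 0.49. At GD17.5 it was 4.47, 1.17 and 1.07 FPKM, at Day 10 8.30, 3.66 and 2.36, and at Day 30 0.440, 3.46 and 1.38. The highest age mean was at Day 15 (7.60, 6.09 and 3.97 FPKM), and the Day 0 mice (1.23, 1.55 and 1.97 FPKM) did not overlap it. Days 10 to 20 were higher by 0.49 (SE 0.21, adjusted p = 0.0479), a call that was lost in 27 of 46 alternatives, down to 0.35 (adjusted p = 0.161) without Day 10 mouse 1. None of the 11 ages was called different from Day 60. Under upper quartile scaling GD17.5 (-1.01, adjusted p = 0.0375) and Day 0 (-1.02, adjusted p = 0.0371) were called lower, as was GD17.5 without its mouse 1 (-1.06, adjusted p = 0.0423). Of the lymphatic endothelial genes of the check list, Flt4 and Lyve1 were tested, and Pdpn and Ccl21a were below the filter. At Days 10 to 20, where Prox1 was called, 1 of the 2 was higher and none lower. Both were higher at GD17.5 to Day 5, as were 69.6% of all genes, and both were lower at Days 25 to 60, as were 68.2%. Their part in the Prox1 values was not tested.

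Only the first 2 steps between neighbouring ages held calls. From GD17.5 to Day 0, 3 of the 8 rose (Foxa2, Hnf4a and Cebpa), where 13.1% of all genes rose and 41.4% fell. From Day 0 to Day 1, 2 of 8 rose (Foxa1 and Foxa3), where 23.7% of all genes rose. The other 9 steps had none by limma, with 9 of 72 gene-by-step comparisons at an unadjusted p under 0.05 and 1 call under upper quartile scaling. Together these are 5 calls of 88, against 14.6% for all genes. Without the 9 acinar-rich libraries none of these 5 was called (adjusted p = 0.0549 to 0.140). That removal took mouse 3 of Day 0 and mouse 2 of Day 1. The log2 fold changes moved from 0.60 to 0.55 (Foxa2), 0.81 to 0.84 (Hnf4a) and 0.95 to 0.64 (Cebpa). Those of the second step moved from 0.73 to 0.71 (Foxa1) and from 0.88 to 1.01 (Foxa3). The 1 call without those libraries was another step, the rise of Onecut1 from Day 20 to Day 25 (1.17, adjusted p = 0.0229).

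The mice of an age did not vary independently in these genes. Each mouse's deviation from the mean of its age was compared for the 28 pairs of the 8 genes over 36 mice, with permutations within ages and adjustment over the 28. Hnf4a went with Prox1 (r = 0.71, rho = 0.68, permutation p = 0.000330, adjusted p = 0.00308). Cebpb went against both Prox1 (r = -0.72, rho = -0.72, permutation p = 0.000180, adjusted p = 0.00252) and Hnf4a (r = -0.72, rho = -0.70, permutation p = 0.000610, adjusted p = 0.00342). Foxa1 went with Onecut1 (r = 0.69, rho = 0.73, permutation p = 0.000180, adjusted p = 0.00252) and with Foxa2 (r = 0.72, rho = 0.61, permutation p = 0.000530, adjusted p = 0.00342). A further 2 of the 28 pairs passed by both measures, Foxa3 with Cebpa (r = 0.55, rho = 0.49, permutation p = 0.00359, adjusted p = 0.0168) and Foxa2 with Onecut1 (r = 0.50, rho = 0.51, permutation p = 0.00752, adjusted p = 0.0301). Without the 2 mice farthest from the median of the first gene the values of the first 5 pairs were 0.65, -0.69, -0.65, 0.75 and 0.54.

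The libraries of an age also differed in how their values ran with transcript length and GC content across all genes, and the members followed that trend unequally. Prox1 rose with the length trend of its library (r = 0.92, rho = 0.93, permutation p = 1e-05, the smallest that 100000 permutations can give), as did Hnf4a (r = 0.77, rho = 0.67, permutation p = 0.000640) and Foxa1 (r = 0.66, rho = 0.61, permutation p = 0.00123), while Cebpb fell (r = -0.73, rho = -0.72, permutation p = 0.000140). Cebpb has the shortest of the 8 longest transcripts, 1504 bases, and the highest GC content, 67.2%. Hnf4a and Prox1, with 4362 and 4133 bases, have the longest, and Prox1 has the lowest GC content, 51.2%. Onecut1, with 1815 bases and a GC content of 61.8%, also rose with the length trend (r = 0.49, rho = 0.57, permutation p = 0.00415). The lowest length trend of all libraries, -0.195 log2 per doubling of length, was that of mouse 1 of Day 30. This mouse deviated from its age mean by -0.785 in Prox1, -0.937 in Hnf4a and 0.732 in Cebpb. The part of the length trend in these deviations was not tested. When the trends with GC content and length were taken out of every library, the correlation of Cebpb with Prox1 shrank to -0.31 and that with Hnf4a to -0.37. Prox1, Hnf4a, Onecut1 and Foxa1 themselves still went with the length trend after this removal (r = 0.89, 0.73, 0.67 and 0.66). The correlation of Hnf4a with Prox1 was then 0.66, that of Foxa1 with Onecut1 0.79 and that of Foxa1 with Foxa2 0.84. Without the acinar-rich libraries (27 mice) the values were -0.84, -0.72, 0.77, 0.56 and 0.74 in the same order.

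**Figure D5:**
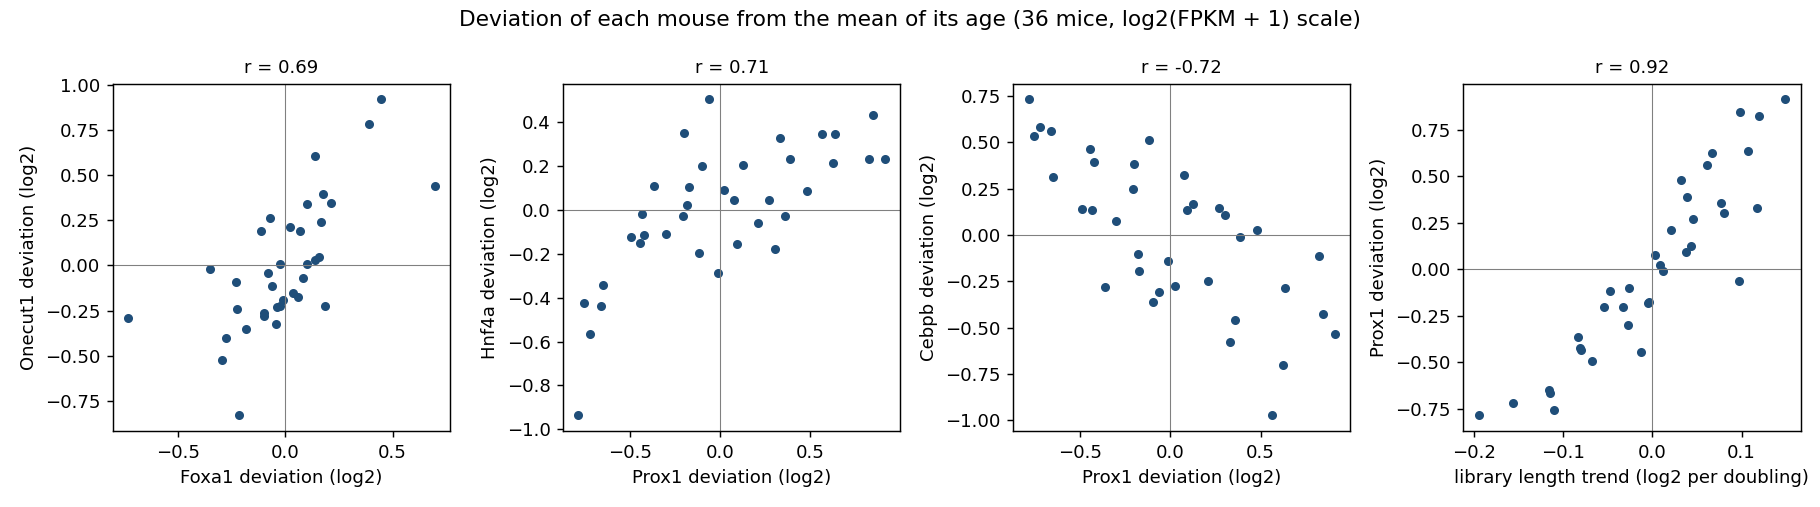
Deviation of each of 36 mice from the mean of its age, log2(FPKM + 1) scale, for Foxa1 and Onecut1, Prox1 and Hnf4a, Prox1 and Cebpb, and, at the right, Prox1 against the library's trend with transcript length (log2 per doubling of length). The points of the right panel lie closest to a line (r = 0.92), and the third panel slopes downward (r = -0.72).

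Other transcription factors of the liver moved in both directions. Of 24 listed, 19 were tested, and at GD17.5 to Day 5 7 were higher, 8 lower and 4 not called, with a median log2 fold change of -0.06, where 69.6% of all genes were higher, 15.8% lower and the median was 0.46. The lower ones included Nr0b2 (SHP, a corepressor of nuclear receptors), which was 0.210 ± 0.0580 FPKM at GD17.5 and 20.4 ± 2.60 at Day 60 (SD, n = 3; -1.79, adjusted p = 3.95e-15), Rxra, the shared partner of many nuclear receptors (-0.55, adjusted p = 5.96e-05), and Nr5a2 (LRH-1, -0.52, adjusted p = 0.00457). The higher ones included 3 relatives of Cebpa and Cebpb: Cebpe, a factor of neutrophil maturation (2.33, adjusted p = 1.11e-19), Cebpd (0.93, adjusted p = 1.01e-12) and Cebpg (0.34, adjusted p = 0.0106). All 10 neutrophil markers on the check list were also higher at GD17.5 to Day 5, with a median of 6.32. Their part in the Cebpe values was not tested.

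Most genes on the lists of known targets of these factors were lower at GD17.5 than at Day 60. Of 14 tested HNF4A target genes, 13 were lower at GD17.5 than at Day 60 and 1 higher, with a median log2 fold change of -2.24, where 18.6% of all genes were lower. Of 12 FOXA targets, 10 were lower and 2 higher (median -3.38), and of 14 C/EBP targets, 12 were lower and none higher (median -4.63). The lists share genes. Alb, Pck1 and Tat are on both the FOXA and C/EBP lists, and Ttr and Apob on both the HNF4A and FOXA lists. Alb, Ttr, Apoa1, Apob and Trf are also among the hepatocyte markers. The part of hepatocyte content in these differences was not tested. Apoc3, an apolipoprotein of triglyceride-rich particles, rose from 2.99 ± 1.53 FPKM at GD17.5 to 180 ± 66.8 on Day 0 and 2371 ± 135 on Day 60, and Orm1, an acute-phase glycoprotein, was 0.521 ± 0.143, 1.96 ± 0.592 and 563 ± 65.5 (SD, n = 3). Tat, a tyrosine-degrading enzyme, went from 0.217 ± 0.0690 to 309 ± 69.0 FPKM between GD17.5 and Day 60, with 46.3 ± 68.8 at Day 0. The exceptions included Afp (alpha-fetoprotein), with 3601 ± 180 FPKM before birth, 11497 ± 2930 on Day 0 and 0.906 ± 0.592 on Day 60, and Igfbp1 (73.9 ± 21.9, 762 ± 193 and 10.2 ± 8.76 FPKM). Pklr, the liver pyruvate kinase and a listed HNF4A target, was 157 ± 24.6 FPKM at GD17.5 and 58.4 ± 9.03 at Day 60.

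By the age means, the genes most like each member were found among 4779 genes with a mean of 10 FPKM or more at some age, with Pearson's r over the 12 means of log2(FPKM + 1) as the measure. For Cebpa they were Acsm1 (r = 0.967), H13 (0.958) and Slc46a1 (0.936). For Foxa2 they were Npc1 (0.940), Mmd (0.938) and Kif1c (0.937), for Foxa1 Jtb (0.932), Lypla1 (0.932) and Larp1b (0.923), and for Foxa3 Cdh1 (0.924), Alkbh6 (0.910) and Acot3 (0.908). For Hnf4a they were Errfi1 (0.927), Ugt1a1 (0.922) and Stard5 (0.920), and for Prox1 Pcyox1 (0.927), Txndc5 (0.869) and Abhd2 (0.864). Onecut1 and Cebpb had no gene above 0.9, and for Cebpb the closest were Pccb (0.846), Adk (0.842) and Ahcy (0.840).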

How the data were processed

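Poly-A RNA of 36 livers was sequenced as paired ends with a kit that does not mark strand. According to the labels and the study's methods, the authors aligned reads to NCBI37/mm9 with TopHat 1.2.0, estimated transcripts with Cufflinks 1.0.3 and deposited FPKM per gene symbol; other settings are not given in the sources used here. The genes tested reached a mean of 1 FPKM at some age, and log2(FPKM + 1) was used, so changes of low genes are understated, with limma 3.58.1 (R 4.3.3), 1 mean per age, a mean-variance trend and Benjamini-Hochberg adjustment over all genes at 0.05. Single ages were set against Day 60 or the neighbouring age, and age groups against the rest. Simulated data were tested first. The table holds no counts, so intervals from counting error are not given. Mice of an age are separate animals, so p-values measure the spread between animals of an age. In the age-group comparisons they do not measure the spread between the ages of a group. The members, lists and tests were chosen with earlier results of these data known. All 8 members were named in every comparison, then from each related list up to 3 genes with the largest change in each direction for GD17.5 to Day 5, the 3 most similar genes per member, and marker genes that moved with a result. Alternatives were another pseudocount, other filters, upper quartile and TPM scaling, no trend, a replicate block, Dunnett's comparison (scipy 1.17.1) and each mouse left out. Removal of GC content and length trends, and of acinar-rich libraries, was added after seeing the data. The genes closest in pattern to Onecut1 are not reported here.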

Additional observations from a re-analysis of the deposited data

How the results depend on the processing

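Counts of the 8 genes depended on settings as follows. The 7 genes that differed from Day 60 at some age became 4 without the 9 acinar-rich libraries. The 16 differences from Day 60 over all ages became 8 with a filter at 5 FPKM, which removes Foxa1 and Onecut1, 35 with upper quartile scaling, 26 with GC content and length trends removed together with the replicate block, and 10 without the acinar-rich libraries. The 5 genes lower at GD17.5 to Day 5 became 3 with the 5 FPKM filter, 8 with upper quartile scaling and 3 without the acinar-rich libraries. The 2 genes higher at Days 10 to 20 became 1 with a pseudocount of 0.1, 1 with no filter, 1 with TPM, 4 with upper quartile scaling and 0 without the acinar-rich libraries. At Days 25 to 60 the 4 higher genes became 2 with the 5 FPKM filter, and the 1 lower gene became 0 with upper quartile scaling, TPM or no acinar-rich libraries. The 5 steps became 1, a different one, without those libraries. Leaving out each mouse in turn gave 4 to 8 genes, 8 to 21 differences, 4 to 6 lower and 0 higher genes at GD17.5 to Day 5, 1 to 2 higher and 0 to 1 lower at Days 10 to 20, 3 to 4 higher and 0 to 2 lower at Days 25 to 60, and 2 to 7 steps. Upper quartile scaling reversed Foxa3 at GD17.5 to Day 5 (-0.39) and at Days 25 to 60 (0.10), and Hnf4a at Days 25 to 60 (-0.04 to 0.41). Other causes were not tested. Of 2146 single-gene values under alternatives, 2018 kept their side of the threshold, 12 of them with the opposite sign and uncalled. Dunnett's comparison with Day 60 gave 11 differences in 5 genes.

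Replicate numbers were not taken as pairing the mice, since the labels tie no litter or day to them. Of 198 same-number pairs of libraries, 104 had deviations correlated above 0.1. Mouse 1 was the highest of its age at 7 of 12 ages for Foxa1, Hnf4a, Onecut1 and Prox1. It was the highest at 5 ages for Foxa2 and Foxa3, and at 2 for Cebpa and Cebpb. That 19 of 36 libraries were closest to their own number is a hint from the data and not from the design. With the number as a replicate block, 18 differences from Day 60 and 6 steps were called, the counts of genes for any age and for the age groups were those without it, and all 47 single-gene results kept their call. Depth limits Onecut1 most, where 23 fragments leave a counting error of about 20.7%.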
